A study of Bos taurus with 6 samples.

Results

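The cytoplasmic ribosomal protein genes were followed from the immature to the mature testis of Wandong cattle. They were taken as every row of the gene table whose symbol was a ribosomal protein name of the large subunit (RPL), the small subunit (RPS) or the P stalk (RPLP), together with RPSA. This gave 83 of 47249 rows and 82 symbols, because RPS29 had 2 rows. Of the 83 rows, 76 were core members, the rows for standard ribosomal proteins that these names reach. The other 7 were paralogs, genes related to a core member: RPL3L, RPL7L1, RPL10L, RPL22L1, RPL26L1, RPL36AL and RPS27L. No row carried the symbols RPL31, RPL41 or RPL39L, and these genes were not analysed here. All 82 symbols were found among the gene names of RefSeq for cattle. Libraries labelled as testis of immature calves aged 3 months (3 libraries) and of mature bulls aged 3 years (3 libraries) were compared. Each library was named as 1 individual, and the paper describes no treatment of the animals. Total RNA was freed of ribosomal RNA and sequenced with random priming, and levels were deposited as FPKM, a level scaled to transcript length and to the number of fragments in the library, so that levels of different genes can be set side by side.

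Each ribosome is built from ribosomal RNA and a full set of ribosomal proteins, and the genes for these proteins are known to be expressed together at high levels in growing cells. The calf testis consists largely of Sertoli cells and early germ cells, whereas the bull testis is filled with meiotic cells and spermatids. During male meiosis the X chromosome is silenced, and intronless autosomal copies of some X-linked ribosomal protein genes are known to be used by the germ cells at that stage.

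The library labelled calf 3 stood apart from calf 1 and calf 2. Its 6 oligodendrocyte markers (a cell type of the brain) summed to 13017 FPKM, against 19.7 to 29.4 FPKM in the other 5 libraries. Its 6 neuron markers summed to 810 FPKM, against 4.47 to 15.6 FPKM elsewhere. Its Leydig cell markers summed to 0.502 FPKM, against 1141 to 2738 FPKM elsewhere. The 10 Sertoli cell markers summed to 2824 and 2699 FPKM in calves 1 and 2, to 443 FPKM in calf 3 and to 387 to 406 FPKM in the bulls, and GATA4, FSHR and WT1 among them were listed at 0 in calf 3. Markers of elongated spermatids summed to 2.31 to 3.57 FPKM in the 3 calf libraries and to 14978 to 17244 FPKM in the bulls. The part of cell composition in the results was not tested, and in whole tissue fewer cells of a type and less RNA per cell cannot be told apart. The comparisons are therefore given with all 6 libraries and again without calf 3. FPKM carries no read depth, and library depths were not used here.

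The ribosomal protein genes were several times higher in calf 1 and calf 2 than in the bulls, and calf 3 lay near the bulls. The median of the 75 core genes that passed the filter (at least 1 FPKM in at least 3 libraries) was 1092 FPKM in calf 1, 1014 FPKM in calf 2 and 206 FPKM in calf 3. It was 278, 249 and 255 FPKM in bulls 1 to 3. Taken gene by gene, the mean of calf 1 and calf 2 was a median of 4.38-fold above the bull mean, with a range of 1.35 to 16.3-fold over the 75 genes. Calf 3 was lower than both other calves for all 75 core genes. It lay below all 3 bulls for 43 of them, among the bulls for 13 and above all bulls for 19.

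**Figure D1:**
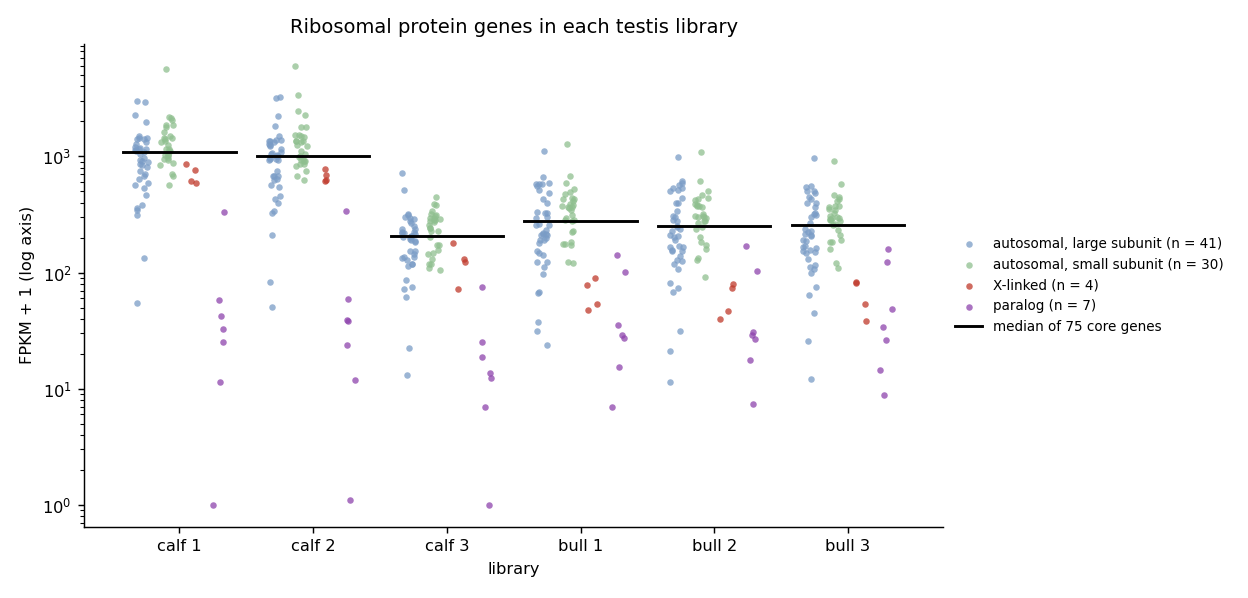
Level of the 82 tested ribosomal protein genes in each library, as FPKM + 1 on a log axis, with 1 point per gene coloured by class and a black line at the median of the 75 core genes. The core median was 1092 and 1014 FPKM in calves 1 and 2, and 206 to 278 FPKM in calf 3 and the 3 bulls.

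The test was limma on log2(FPKM + 1), fitted over 18115 genes, and a gene was called at an adjusted p below 0.05 with a log2 fold change of at least 1. Fold changes are given as bull minus calf on this log2 scale, which understates changes of low genes. With all 6 libraries, 12 of the 82 tested members (14.6%) were called lower in bulls, where 9.61% of all genes were called lower. RPL10L alone was called higher, as were 35.7% of all genes. The median log2 fold change of the members was -1.18, against 0.43 for all genes, and 78 of 82 members were negative. RPL10L passed the filter through the 3 bulls alone, and a gene present in calves 1 and 2 only could not pass it. With no filter, 1 member was called higher and 7 lower, beside 6984 and 1581 of 44657 genes. The median of all genes was then 0.12. All bulls lay below all calves for 19 of the 82 members (23.2%), close to the 21.3% of all genes with that order, and above all calves for RPL10L alone, an order held by 46.1% of all genes.

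Without calf 3, 73 of the 82 members (89.0%) were called lower in bulls, where 13.6% of all genes were called lower. RPL10L was again the only one called higher, against 37.9% of all genes. The median of the members was -2.01, against 0.43 for all genes. All 12 members called with 6 libraries were among the 73. All bulls lay below both calves for 79 members (96.3%), against 30.9% of all genes, and above both for RPL10L, against 53.5% of all genes. The 8 members that were not called in either direction were the core genes RPL15, RPL35 and RPL35A and the paralogs RPL3L, RPL7L1, RPL22L1, RPL26L1 and RPS27L. With all 6 libraries the call was fragile: leaving out any 1 of the other 5 libraries left 1 or 2 members called lower. RPS4X was called under each of the 14 alternative settings tried, and RPL10 under each but the fit without bull 2 (adjusted p = 0.053). Scaling by quantiles moved the median of all genes from 0.43 to -0.26, and 40 members were then called lower, as were 25.1% of all genes, with a median of -1.10.

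**Figure D2:**
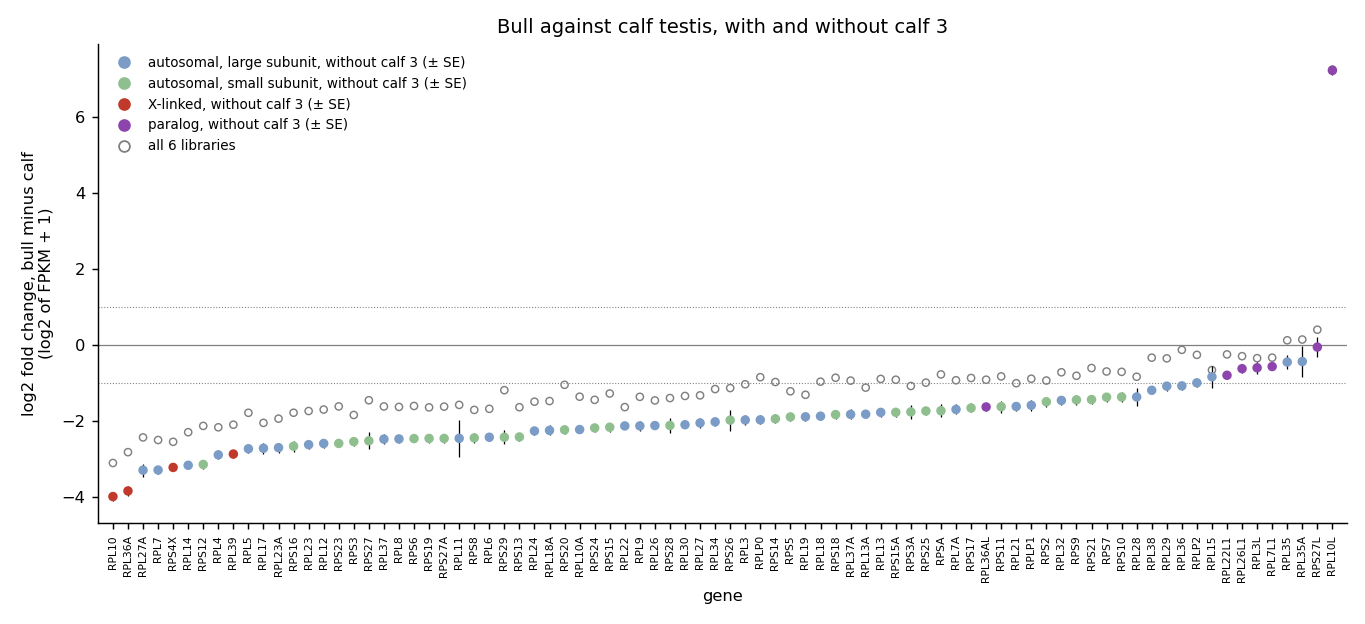
Log2 fold change (bull minus calf, log2 of FPKM + 1) of the 82 tested members, ordered by the fit without calf 3 (filled points, coloured by class, with bars of ± 1 SE), beside the fit with all 6 libraries (open circles). The 4 X-linked genes lie among the 9 core genes with the largest decreases, 6 of the 7 paralogs lie among the 10 genes at the right with 4 core genes, and RPL10L alone lies above 1.

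The medians of both subunits were close. Of the 44 large-subunit core genes, 10 were called lower with all libraries (median -1.36) and 41 without calf 3 (median -2.12). Of the 31 small-subunit core genes, 2 were called lower with all libraries (median -1.20) and 31 without calf 3 (median -2.13). The 2 small-subunit genes were RPS4X and RPS3. The difference between subunits was not tested.

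The member with the highest mean over all libraries was RPS29, a small zinc-binding protein of the small subunit. It measured 5666, 6008 and 442 FPKM in calves 1 to 3 and 1279, 1081 and 905 FPKM in bulls 1 to 3. Calf 1 and calf 2 were the highest libraries and calf 3 the lowest, so the groups overlapped. Its log2 fold change was -1.20 (SE 1.10, adjusted p = 0.393), and -2.44 (SE 0.19, adjusted p = 7.35e-05) without calf 3. The RPS29 locus overlaps a row of signal recognition particle RNA, and reads of the pair may not be separable. The second RPS29 row, on the same chromosome, held 0.184 to 0.961 FPKM and did not pass the filter.

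RPLP1, an acidic protein of the stalk that recruits translation factors, measured 2917, 3268 and 720 FPKM in the calves and 1120, 988 and 963 FPKM in the bulls. The log2 fold change was -0.89 (adjusted p = 0.312), and -1.59 (adjusted p = 0.000141) without calf 3. RPLP1 was above RPS29 in calf 3 and bull 3. RPL37, RPS27 and RPS18 completed the 5 core genes with the highest mean over all libraries. RPL37 measured 3002, 3162 and 514 FPKM in the calves and 503 to 587 FPKM in the bulls. RPS27 measured 2049, 3368 and 284 FPKM in the calves and 426 to 489 FPKM in the bulls. RPS18, a protein of the head of the small subunit, measured 2159, 2288 and 295 FPKM in the calves and 576 to 672 FPKM in the bulls. In each of the 5 genes calf 1 and calf 2 were above every bull. None of the 5 was called with all libraries, and each was called lower without calf 3. The 5 highest core genes of each library together took 18.1% and 20.6% of its summed core FPKM in calves 1 and 2, 15.2% in calf 3 and 17.3 to 18.5% in the bulls.

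The X-linked members were called lower with and without calf 3, and RPL10 and RPL36A had the largest decreases of the family. RPL10, a late-joining protein near the catalytic centre of the large subunit, measured 856, 774 and 129 FPKM in calves 1 to 3 and 52.7, 45.5 and 52.2 FPKM in bulls 1 to 3. All calves, including calf 3, were above all bulls. The log2 fold change was -3.11 (SE 0.74, adjusted p = 0.0133), and -4.0 (SE 0.11, adjusted p = 1.43e-06) without calf 3, the largest decrease among the core genes in both fits. RPL36A, a zinc-binding protein of the large subunit, measured 588, 607 and 70.6 FPKM in the calves and 46.3, 38.5 and 37.2 FPKM in the bulls. Its log2 fold change was -2.83 (adjusted p = 0.0315), and -3.85 (adjusted p = 2.20e-06) without calf 3. The groups again did not overlap.

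RPS4X, the X-linked gene for small-subunit protein S4, measured 765, 697 and 179 FPKM in the calves and 77.3, 72.7 and 80.7 FPKM in the bulls. The log2 fold change was -2.56 (SE 0.58, adjusted p = 0.0108), and -3.23 (adjusted p = 2.15e-06) without calf 3. RPL39, a very small protein of the exit tunnel, measured 609, 629 and 123 FPKM in the calves and 89.4, 78.9 and 81.9 FPKM in the bulls. Its log2 fold change was -2.11 (adjusted p = 0.0351), and -2.88 (adjusted p = 3.15e-06) without calf 3. All 4 X-linked core genes were called lower in both fits, with a median of -2.69 with all libraries and -3.54 without calf 3. RPL36A and RPL39 were fragile, since each lost its call under 6 of the 14 alternative settings. Of the 71 autosomal core genes, 8 were called lower with all libraries (median -1.23) and 68 without calf 3 (median -2.06). Between calves 1 and 2 and the bulls, the X-linked genes differed 7.42 to 16.3-fold and the autosomal core genes by a median of 4.20-fold. The classes overlapped: without calf 3, 5 of the 71 autosomal core genes had a larger decrease than X-linked RPL39. Autosomal RPL7 differed 9.93-fold and RPL14 9.09-fold, within the range of the X-linked genes. RPL36A overlaps BTK in the gene table, and how reads in the overlap were assigned is not given in the sources used here.

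To see which genes left the common level, the median of the core genes was subtracted in each library before the fit. This centring raises every other gene by the amount the core fell, so that 0.110% of all genes were then called lower and 39.9% higher. With all libraries, 4 core genes were called below the family: RPL10 (-1.89), RPL36A (-1.60), RPS4X (-1.33) and RPL7 (-1.28). RPL39 measured -0.88 (adjusted p = 0.136). Thus 3 of 4 X-linked and 1 of 71 autosomal core genes were called lower relative to the family. These calls were fragile, since 0 or 1 core gene was called lower when any 1 library other than calf 3 was left out, and 1 with no filter, without the variance trend or with the replicate number as a block. Without calf 3, RPL27A, RPL14 and RPS12 joined these 4, and the counts were 3 of 4 and 4 of 71, where 0.502% of all genes were called lower and 86.0% higher. The difference between the X-linked and autosomal genes was not tested as such.

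Above the family, RPL35A (1.37), RPL35 (1.35) and RPL36 (1.09), all of the large subunit, were called with all libraries. These calls were fragile too. When any 1 library other than calf 3 was left out, 0 or 1 core gene was called higher. Without the variance trend 0 were. Without calf 3 the called core genes were RPL35A (1.57), RPL35 (1.55), RPL15 and RPLP2, and RPL36 measured 0.93. On the uncentred scale none of these genes was called higher, and RPL35, RPL35A, RPL36, RPLP2 and RPL38 had log2 fold changes of both signs over the 14 alternative settings. RPL35 measured 803, 754 and 236 FPKM in the calves and 663, 614 and 449 FPKM in the bulls, with log2 fold changes of 0.12 with all libraries and -0.46 without calf 3. RPL35A measured 1122, 429 and 207 FPKM in the calves and 578, 537 and 428 FPKM in the bulls. Its calves differed from each other more than its bulls did, and its log2 fold changes were 0.14 and -0.44. RPL36 measured 1127, 1081 and 153 FPKM in the calves and 556, 507 and 501 FPKM in the bulls, with log2 fold changes of -0.13 and -1.08, the second of them called. RPLP2, partner of RPLP1 in the stalk, and RPL38 had log2 fold changes of -0.27 and -0.34 with all libraries, and were called at -1.0 and -1.20 without calf 3.

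**Figure D3:**
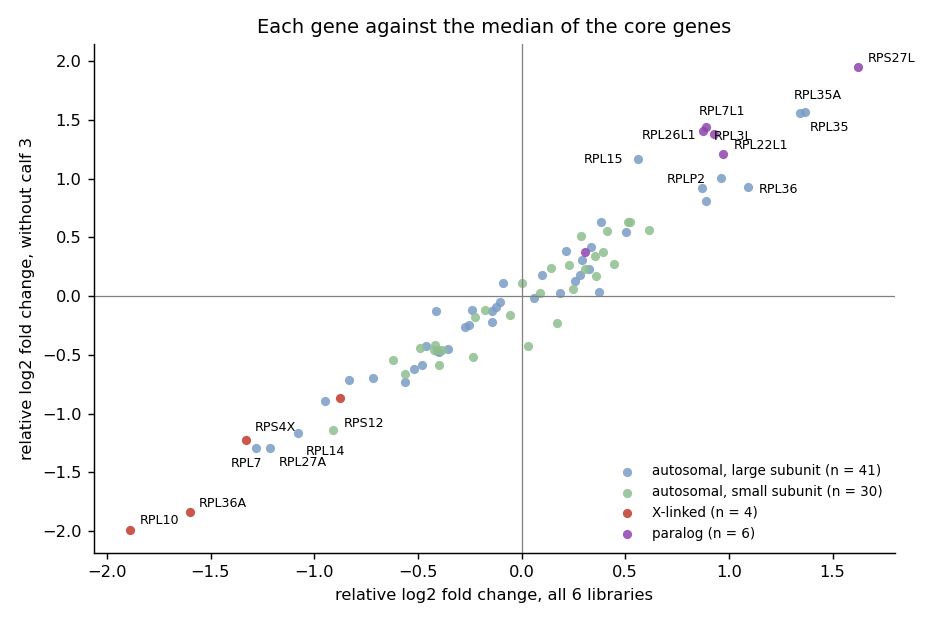
Log2 fold change (bull minus calf) of each member after the median of the core genes was subtracted in every library, with all 6 libraries (horizontal axis) and without calf 3 (vertical axis); RPL10L, at 8.48 and 9.23, lies outside the plotted range, and names mark members called in either fit. RPL10 and RPL36A lie lowest in both fits, and RPS27L, RPL35A and RPL35 highest.

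Among the autosomal genes with the largest decreases, RPL7 measured 1092, 1053 and 206 FPKM in the calves and 110, 107 and 107 FPKM in the bulls. Its log2 fold change was -2.51 (adjusted p = 0.0207), and -3.30 (adjusted p = 1.40e-06) without calf 3. RPL27A measured 348, 393 and 60.7 FPKM in the calves and 36.5, 30.2 and 44.2 FPKM in the bulls, with log2 fold changes of -2.44 (adjusted p = 0.0309) and -3.30. In both genes every calf, calf 3 included, was above every bull. The RPL27A locus overlaps ST5, and its split over transcripts was unstable. The annotated transcript RPL27A-201 held 59.7%, 24.2% and 4.91% of its FPKM in the calves and 11.9%, 22.5% and 1.16% in the bulls. An assembled transcript held 0.0640 to 49.4% in the bulls, and the gene-level value is uncertain. The other autosomal genes called lower with all libraries were RPL14, RPL4, RPL17, RPL23A, RPS3 and RPL22, with log2 fold changes of -2.30 to -1.64.

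RPL7 also changed in the transcript to which its reads were assigned. The annotated transcript (chromosome 14, 36623520 to 36627029, a span of 3510 bases) held 99.6%, 99.4% and 99.5% of the gene's FPKM in the calves and 9.91%, 11.5% and 13.9% in the bulls. The rest lay in an assembled transcript that starts at the same base but spans 31705 bases, into the locus of RDH10, a retinol dehydrogenase. The annotated transcript measured 1087, 1047 and 205 FPKM in the calves and 10.9, 12.3 and 14.8 FPKM in the bulls. The assembled one measured 4.55, 6.16 and 1.06 FPKM in the calves and 99.2, 94.8 and 91.9 FPKM in the bulls. Calf 3 followed the other calves here in the shares, though not in the level. The log2 fold changes were -5.51 for the annotated and 4.47 for the assembled transcript, both called with and without calf 3. How reads of shared exons were divided between the 2 models sets both values and the RPL7 total, and was not tested. Of the 42 members with at least 2 transcript rows, RPL7 was the only one with a transcript whose share differed by more than 50 percentage points between the bulls and calves 1 and 2, a limit chosen after the values were seen.

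Over all transcripts of the members, 137 of 176 rows passed the filter. With all libraries 21 were called lower and 5 higher in bulls, where 9.37% of all transcripts were called lower and 34.8% higher. Without calf 3, 98 were called lower and 5 higher, against 13.1% and 36.1% of all transcripts. The median was -1.06 with all libraries and -1.80 without calf 3, while all transcripts had medians of 0.40 in both fits. The X-linked genes RPL10, RPL36A, RPL39 and RPS4X were called lower in each of their tested transcripts in both fits. The 5 transcripts called higher were RPL10L, the RPL7 transcript above, a second RPL35 transcript and 2 rows assigned to RPSA. For RPL35A the split was unstable, since the annotated transcript held 88.1%, 30.7% and 0% of its FPKM in the calves and 82.5 to 99.6% in the bulls, and its gene-level value is uncertain.

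RPL10L was the member with the opposite course. It encodes a copy of RPL10 that is known from male germ cells, and it lies on an autosome (chromosome 10, 39647709 to 39648473, as deposited, in positions that follow an ARS-UCD assembly). RPL10L was listed at 0, 0.104 and 0 FPKM in the calves and measured 141, 170 and 160 FPKM in the bulls. The log2 fold change was 7.25 (SE 0.15, adjusted p = 2.68e-06), and 7.23 without calf 3; since calf 1 and calf 3 were at 0, this value depends on the pseudocount of 1. The bull level stood 51st to 60th among the 82 members and above RPL10 itself in every bull. RPL10L made up 72.8%, 78.9% and 75.4% of the summed FPKM of RPL10 and RPL10L in the bulls and at most 0.0134% in the calves. The sum of both genes was 856, 775 and 129 FPKM in the calves and 194, 215 and 212 FPKM in the bulls. In calves 1 and 2 it was 3.94-fold above the bulls, while RPL10 alone was 16.3-fold above.

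RPS4X has a related gene outside the chosen set, named here after its values were seen. A row with the symbol RPS4Y1, on chromosome 23 in the deposited coordinates, measured 26.3, 31.8 and 11.5 FPKM in the calves and 203, 221 and 146 FPKM in the bulls. Its log2 fold change was 3.07 (SE 0.40, adjusted p = 0.00106), and 2.65 (SE 0.20, adjusted p = 6.28e-05) without calf 3. It held 3.32%, 4.36% and 6.06% of the summed RPS4 level in the calves and 72.4%, 75.3% and 64.4% in the bulls. The sum of both genes differed 2.85-fold between calves 1 and 2 and the bulls, where RPS4X alone differed 9.50-fold.

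RPL36AL, the autosomal copy of RPL36A, measured 333, 339 and 74.8 FPKM in the calves and 101, 101 and 121 FPKM in the bulls. It fell without calf 3 (-1.64, adjusted p = 5.30e-05, beside -3.85 for RPL36A), and with all libraries it measured -0.92 (adjusted p = 0.246). Its share of the pair was 36.2%, 35.8% and 51.4% in the calves and 68.5%, 72.5% and 76.5% in the bulls. The sum of the pair was 6.29-fold higher in calves 1 and 2 than in the bulls.

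**Figure D4:**
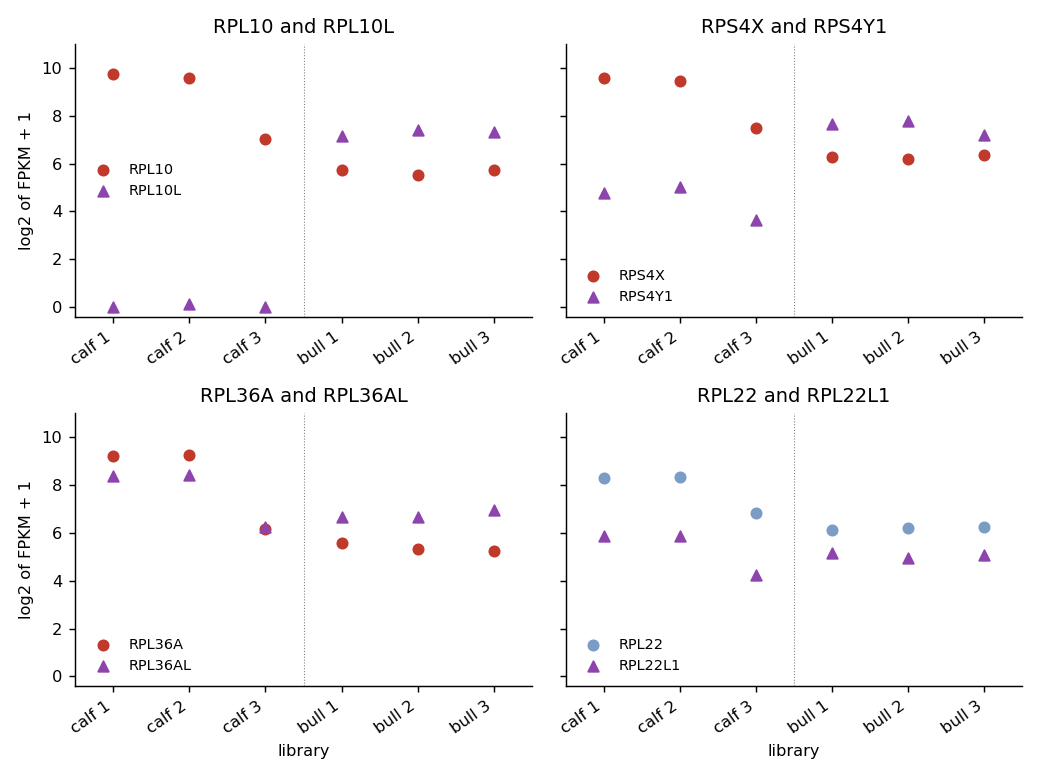
Log2 of FPKM + 1 in each library for 3 X-linked genes and autosomal RPL22 (circles) with a related gene (triangles). The related gene lies above the X-linked gene in all 3 bulls for RPL10L, RPS4Y1 and RPL36AL, and below RPL22 in every library for RPL22L1.

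The remaining 5 paralogs had parents on autosomes, and 4 of them made up a larger share of their pair in every bull than in any calf. RPL22L1 measured 56.6, 58.1 and 17.6 FPKM in the calves and 34.6, 30.0 and 32.8 FPKM in the bulls, while RPL22 measured 313, 323 and 113 FPKM and 67.6, 72.6 and 74.5 FPKM. The share of RPL22L1 was 13.5 to 15.3% in the calves and 29.3 to 33.8% in the bulls. RPL7L1, a paralog known for a role in ribosome assembly, held 3.67%, 3.48% and 10.4% of its pair in the calves and 19.1 to 20.3% in the bulls, with the reservation on RPL7 given above. The share of RPL26L1 was 2.37 to 4.57% in the calves and 5.69 to 7.52% in the bulls, and that of RPS27L 1.09 to 4.23% and 5.12 to 9.50%. RPS27L was split unevenly over its transcripts, with 1.75 to 11.1% of its FPKM in the annotated one in 5 libraries and 67.9% in bull 3. Shares of the RPL3L row, a gene known from muscle, overlapped between the groups, at 1.15 to 4.40% and 2.28 to 3.72%. Of that row's FPKM, 74.6 to 96.8% lay in an assembled transcript within the overlap with NDUFB10, and each annotated RPL3L transcript was below 1 FPKM, so that these values do not measure RPL3L.

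Over the 7 pairs, the share of the paralog was higher in all bulls than in all calves for 6 and overlapped for RPL3L. The exact two-sided permutation test gave p = 0.1 for each of the 6, the smallest value that 3 against 3 libraries allow, or 0.117 after adjustment over the 7 pairs, and p = 0.6 for RPL3L. None of the shares therefore passed the threshold. Without calf 3, the share was higher in all bulls for all 7 rows. The exact permutation p was 0.1 for each, again the smallest value possible. The RPL3L row, which does not measure RPL3L, is counted among the 7 and among the 6 that follow. The 6 paralogs other than RPL10L were 1.01 to 3.12-fold higher in calves 1 and 2 than in the bulls, and limma called 0 of them with all libraries, where 0 had an unadjusted p below 0.05. Without calf 3, 1 was called lower and 5 had an unadjusted p below 0.05, all of them lower. Near-identical copies and processed pseudogenes can share reads with these genes, so that the levels of parent and paralog are uncertain to that extent.

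As a part of the transcriptome, the members took 26.4%, 24.9% and 5.43% of the summed FPKM in calves 1 to 3 and 5.58%, 5.13% and 4.91% in bulls 1 to 3, once small RNA families were left out of the total. Calf 3 lay within the range of the bulls. The difference of the means was -13.7 percentage points, and the exact two-sided permutation test gave p = 0.2, where 0.1 is the smallest value possible. Without calf 3 the difference was -20.4 points (exact permutation p = 0.1, the smallest possible). Small RNA families held 41.8 to 68.3% of the summed FPKM of a library, most in calves 1 and 2. Over all rows the difference was -3.51 points (exact permutation p = 0.4), and -5.34 points without calf 3 (exact permutation p = 0.1).

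Many ribosomal protein genes carry small nucleolar RNAs in their introns, and 29 members held 59 short rows of RNA families (at most 200 bases) inside their loci. Of these, 51 reached 1 FPKM in a library, and all bulls lay below calf 1 and calf 2 for 44 (86.3%). The same order held for 60.2% of 322 other rows of that kind. All bulls lay below all 3 calves for 25 of the 51 (49.0%) and for 48.1% of the other rows, a like share. Their summed level was 157, 174 and 73.2 FPKM in the calves and 50.3, 57.0 and 61.1 FPKM in the bulls. Reads of unspliced host RNA and of the small RNA cannot be told apart in these values.

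Gene lists outside the family with a role in making or using ribosomes had medians nearer to 0 than the core genes. Of 7 elongation factor genes, 0 were called by limma with all libraries (median -0.63), where 0 lower and 1 higher gene had an unadjusted p below 0.05. EEF1A1 (-2.06), EEF1B2 (-1.96) and EEF2 (-1.14) were called lower without calf 3, where 13.6% of all genes were. EEF1A1, which delivers transfer RNA to the ribosome, measured 1320, 563 and 163 FPKM in the calves and 278, 162 and 195 FPKM in the bulls.

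Of 48 ribosome biogenesis factors, 1 was called lower and 8 higher, against 9.61% and 35.7% of all genes, with a median of 0.14. Without calf 3 the counts were 4 and 5 (median -0.12), where 13.6% of all genes were called lower and 37.9% higher. With quantile normalization the median was -0.42 and the counts turned to 11 lower and 2 higher, against 25.1% and 21.1% of all genes. The largest calls were RRP1B (3.87) and RRP1 (2.40), nucleolar proteins of ribosomal RNA processing, and GNL3L (-2.34), a nucleolar GTPase. RRP1 differed between calf 1 and calf 2, at 11.3 and 0.619 FPKM. Of 12 genes of the RNA polymerase I machinery, which transcribes ribosomal RNA, UBTF (-1.01) and POLR1D (-1.0) were called lower, and TAF1B (1.49) and POLR1C (1.16) higher. These 2 lower and 2 higher calls stand beside 9.61% and 35.7% of all genes. Without calf 3, POLR1C was not called and the other 3 were, where 13.6% of all genes were called lower and 37.9% higher. With quantile normalization limma called 3 lower and 0 higher, with 1 higher at an unadjusted p below 0.05. Of all genes, 25.1% and 21.1% were called in that fit. Of 19 regulators of ribosomal protein genes and of the translation of their mRNAs, 3 were called lower, led by MYCN (-2.12) and RPS6KB2 (-1.66). A further 3 were called higher, led by MTOR (1.3) and MLST8 (1.14), where 9.61% of all genes were called lower and 35.7% higher. Without calf 3, 6 regulators were called lower and 3 higher, against 13.6% and 37.9% of all genes. With quantile normalization, and with a common total without small RNA families, limma called 5 lower and 0 higher. In these fits 2 and 3 regulators were higher at an unadjusted limma p below 0.05. Of all genes, 25.1% were called lower and 21.1% higher with quantiles, and 2727 and 5422 of 17883 with the common total. MYC measured 12.9, 9.03 and 1.32 FPKM in the calves and 0.773 to 1.01 FPKM in the bulls, and was called lower without calf 3 (-2.65) but not with it (-1.87, adjusted p = 0.0551).

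The 76 tested mitochondrial ribosomal protein genes, a separate family for the ribosome of the mitochondrion, had a median of 0.48, and limma called 22 higher (35.7% of all genes were) and 0 lower, with 3 lower at an unadjusted p below 0.05. Without calf 3, limma called 19 higher and 0 lower, where 37.9% of all genes were called higher and 13.6% lower. In that fit 13 were lower at an unadjusted p below 0.05, and the median was 0.34. MRPS18C (3.53) and MRPL42 (3.23) had the largest changes. With quantile normalization the median of this family was -0.18, with 5 called lower and 7 higher, against 25.1% and 21.1% of all genes. The median of all genes moved likewise, from 0.43 to -0.26, so that the direction of both depended on the scaling. Medians of the core cytoplasmic genes were negative under all 4 scalings, from -1.10 to -1.68.

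**Figure D5:**
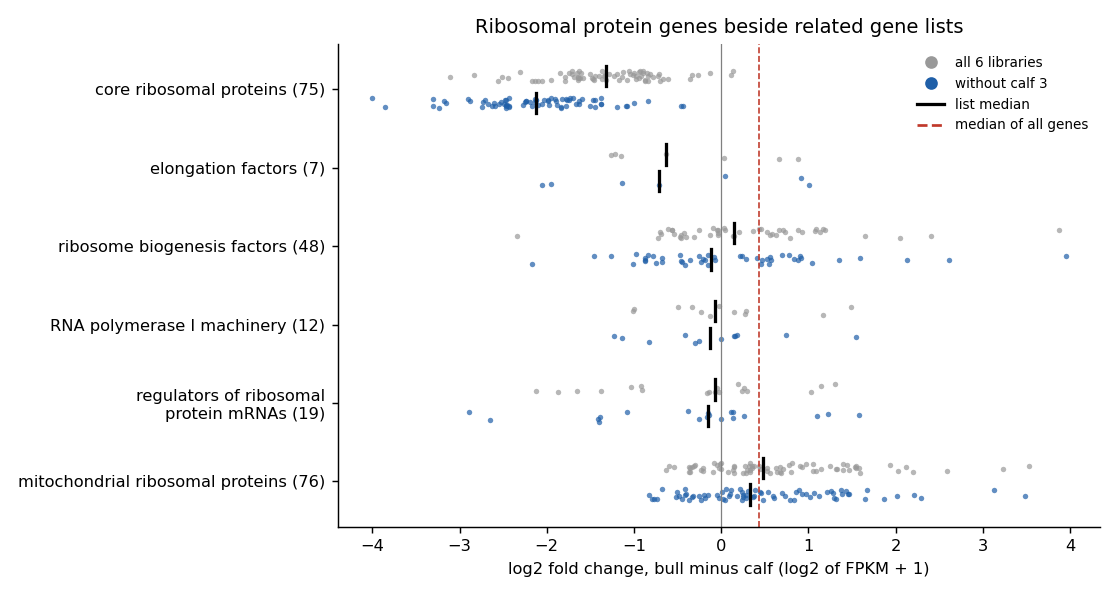
Log2 fold change (bull minus calf, log2 of FPKM + 1) of the core ribosomal protein genes and of 5 related lists, 1 point per gene, with all 6 libraries (grey) and without calf 3 (blue), the list median as a black bar and the median of all genes (0.43) as a dashed line. The core genes have a median of -1.32 with all libraries and -2.13 without calf 3, and the mitochondrial family lies at 0.48 and 0.34.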

How the data were processed

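The authors removed ribosomal RNA, built strand-marking libraries, assembled transcripts and deposited FPKM values per gene and per transcript for 6 testis libraries; the tool that computed them and its use of strand are not given in the sources used here, and read counts were not used. The study names an older cattle build, but 77 of 83 member starts lay within 5000 bases of RefSeq's ARS-UCD positions; they are printed as deposited. Values were analysed as log2(FPKM + 1) with limma 3.58.1 in R 4.3.3, with a mean-variance trend, over genes at 1 FPKM or more in at least 3 of 6 libraries, and p-values were adjusted by Benjamini and Hochberg over all genes tested. A fit centred on the core median was added. Shares were compared by the exact permutation test. The limma procedure was tried on simulated log2 values with spreads taken from the bulls, so without an outlying library. The centring, the shares and the permutation tests were not tried in this way. Named genes were the paralogs and their parents, the X-linked members, the 5 core members with the largest change in each direction, the 5 most abundant, those called after centring, and the largest calls of each list. Members, lists and rules were chosen with earlier results of these data known. Calf and bull libraries share replicate numbers, but the animals differ, and deviations of same-numbered libraries did not correlate (r = 0.0277, 0.0246 and 0.0341), so no pairing was used. Calf 3 was kept under its label. The result of 1 further gene list is not reported here.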

Additional observations from a re-analysis of the deposited data

How the results depend on the processing

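The decrease of the ribosomal protein genes kept its direction under all 14 alternatives, with the median of the members below that of all genes by 0.84 to 2.44 on the log2 scale, while the number of calls depended on the processing. The 12 members called lower became 7 with no filter on low values, 40 with quantile normalization, 23 with a common total over all rows, 34 with a common total without small RNA families, 72 with array weights and 1 to 73 when 1 library was left out. With the replicate number as a block, 10 members were called lower, and the numbers do not pair the animals. Over all genes, 1741 of 18115 were called lower in the main fit, 1581 of 44657 with no filter and 4538 of 18115 with quantiles. They were 1080 of 18311 and 2727 of 17883 with the common totals (all rows, without small RNA). Array weights gave 2470 and the block 1691 of 18115, and leaving out 1 library gave 1218 to 2466. Relative to the core median, the 4 members called lower became 1 with no filter, 12 with quantile normalization and 1 with the replicate block. They became 1 without the variance trend, 7 with array weights and 0 to 7 with 1 library left out. The 4 called higher, RPL10L among them, became 1 without the trend, 9 with array weights and 1 to 10 with 1 library left out. The 21 transcripts called lower became 9 with no filter, 67 with quantiles, 32 and 48 with the common totals (all rows, without small RNA), 100 with array weights and 6 to 98 with 1 library left out. Of all transcripts, 9.37% were called lower with all libraries and 13.1% without calf 3, and shares for the other settings are not given here. Over the related lists, 6 genes called lower became 25 with quantiles, 15 with array weights and 2 to 16 with 1 library left out. The 35 called higher became 9 with quantiles and 18 with the common total without small RNA. Of all genes, 9.61% were called lower and 35.7% higher in the main fit, and 25.1% and 21.1% with quantiles. With array weights 2470 of 18115 genes were called lower, and with the common total without small RNA 5422 of 17883 higher. The percent of summed FPKM differed by -3.51 points over all rows in place of -13.7. The cause of these shifts was not tested. No named member called with all 6 libraries changed sign; RPL36, RPLP2 and RPL38, called lower without calf 3, had positive values under other settings, up to 0.61, 0.13 and 0.47. FPKM without counts and 3 libraries a group limit precision, and without calf 3 the calf group has 2 libraries.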

Other observations

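The order of the core genes by level was more alike among the bulls than between the ages. Over the 75 core genes, Pearson's r of the log2 levels was 0.985 to 0.989 between bulls, 0.956 between calf 1 and calf 2, and 0.755 to 0.819 between these calves and the bulls. Calf 3 had r of 0.870 and 0.852 with calves 1 and 2 and 0.804 to 0.830 with the bulls. Spearman's rank correlation was 0.980 to 0.988 between bulls and 0.958 between calf 1 and calf 2. It was 0.682 to 0.752 between calves 1 and 2 and the bulls, and 0.709 to 0.717 between calf 3 and the bulls. The genes share libraries and sequence features, and are not independent replicates.

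By position, 17 members overlapped another gene that is not a small RNA row. Among them were RPS14 with CD74, RPL15 with NKIRAS1, RPL27A with ST5, RPL30 with MATN2, RPL35 with WDR38, RPL35A with LMLN and RPL3L with NDUFB10. The part of these overlaps in the members' values was not tested.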
